A study of Mus musculus with 2 samples.

Results

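The cells described here are the melanoma cells with the highest levels of 4 hypoxia genes among single cells sorted from mouse B16-F10 tumours. A barcode counted as a melanoma cell when it held at least 20 unique molecular identifiers (UMIs, each standing for 1 captured RNA molecule) of the pigment genes Pmel, Mlana and Dct together and fewer than 3 of Ptprc, the gene for the leukocyte antigen CD45. All 987 such cells of both libraries were ranked together by the share of their UMIs that came from Car9, Pgf, Ndrg1 and Egln3, and the highest 1 in 3, or 329 cells, were taken. These 329 cells are called members, and the remaining 658 are called the other melanoma cells. The members were thus selected on these measured levels, and the levels of the 4 genes are no finding. The search covered 13854 of the 15756 deposited barcodes, those with 500 or more UMIs, 200 or more genes and no more than 10% of UMIs from mitochondrial genes.

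B16-F10, an established melanoma line of C57BL/6 mice, was implanted under the skin of female wild-type C57BL/6 mice aged 10 weeks. One library is labelled control, and what those mice received is not stated. The other is labelled OX40 agonist, after an antibody that activates OX40, a costimulatory receptor of T cells. Both groups shared the line, the host, the enzymatic tumour digestion, a Ficoll gradient to separate leukocytes and a sort for living CD45-positive cells. The labels do not say how many mice went into a library. With 1 library per group no difference between the libraries has a replicate check, so every value is a description of these libraries, and every 95% interval covers counting error only and takes UMIs as independent.

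Cells sense low oxygen through the hypoxia-inducible factors (HIFs). With oxygen present, prolyl hydroxylases of the Egln family mark the HIF alpha subunits for degradation through the von Hippel-Lindau protein Vhl; without it, the alpha subunits accumulate, pair with Arnt and bind a short DNA core in genes for glucose uptake, glycolysis, acid handling, blood vessel growth and mitochondrial turnover. In solid tumours this response is known from regions far from blood vessels.

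The core, ACGTG on either strand (CACGT when read on the other strand), was searched in the 250 bases before each RefSeq start (GRCm38.p6). The following promoter stretches are shown because they place that core in genes whose levels separate members from the other melanoma cells. Each is written 5′ to 3′ on the gene's own strand, with the core in capitals. The stretches are Car9 at chr4:43506995-43507024 (plus strand), Slc2a1 at chr4:119108696-119108725 (plus), Egln1 at chr8:124949306-124949335 (minus), Bnip3 at chr7:138909567-138909656 (minus), Pgk1 at chrX:106186926-106187015 (plus), Hk2 at chr6:82774460-82774549 (minus) and Selenbp1 at chr3:94932836-94932925 (plus). The stretches of Car9, Slc2a1 and Egln1 overlap an exon of the same gene in the GENCODE annotation and were kept to 30 bases.
Car9: cctatttccgatgCACGTacagcccgtcca
Slc2a1: agtcccgccccggACGTGctccccaggccc
Egln1: ggggccgtggtgtACGTGcagcgcgcgcgg
Bnip3: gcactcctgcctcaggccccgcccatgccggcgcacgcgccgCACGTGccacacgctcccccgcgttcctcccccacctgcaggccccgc
Pgk1: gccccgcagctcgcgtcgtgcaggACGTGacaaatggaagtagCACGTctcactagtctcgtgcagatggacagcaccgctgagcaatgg
Hk2: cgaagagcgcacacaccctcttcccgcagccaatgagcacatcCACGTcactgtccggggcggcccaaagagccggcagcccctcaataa
Selenbp1: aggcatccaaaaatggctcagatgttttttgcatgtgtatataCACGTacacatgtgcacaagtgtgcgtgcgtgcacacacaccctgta

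The core begins 18 bases before the RefSeq start in Car9, 36 in Slc2a1, 68 in Egln1 and 52 in Hk2. GENCODE, whose gene positions are given below, starts Car9, Slc2a1 and Egln1 farther upstream. By those positions the core of these genes lies wholly or partly inside the annotated gene. Pgk1 holds it once on each strand, the nearer of them beginning 131 bases before the start. In Bnip3 the match is the palindrome CACGTG, which holds the core on both strands and is also the E-box read by factors such as Myc and Mitf. These stretches were picked because they hold the core, so they say nothing of how common it is. Of all 27025 promoters in the table, 4998 (18.5%) held it, and of the 6241 matched promoters of the genes measured here, 1706 (27.3%) did. It was found in 11 of 17 matched promoters of the hypoxia list described later (64.7%), in 8 of 17 of the glycolysis list (47.1%) and in 4 of 16 of the S-phase list (25.0%). Among the ranking genes, Car9 and Egln3 held it in this window and Pgf did not. Higd1a, Kdm3a, Plod1, Gbe1, Gys1 and Ccng2 of the hypoxia list did not hold it either. A match is a run of letters and no evidence of binding.

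The library of the control group held 6354 kept barcodes and that of the OX40 agonist group 7500, with median depths of 10021 and 8304 UMIs. Melanoma cells were far deeper than leukocytes: members had a median of 64695 UMIs in the control and 53858 in the OX40 agonist library, the other melanoma cells 85114 and 69631, and T cells (at least 2 Cd3e UMIs) 14599 and 11527. Members therefore had fewer UMIs than the other melanoma cells in both libraries. The part of this depth gap in the results was not tested. Only 16 and 6 members held fewer than 10000 UMIs, so a floor there does not even out the depth. With that floor 203 genes passed the higher call described later, against 201. With each cell thinned to 5000 UMIs, 196 passed the higher call and 436 the lower, against 201 and 385. Median mitochondrial shares were near one another, at 2.92% and 3.23% in members and 2.83% and 3.19% in the others. The libraries shared 18 barcode sequences, none of them a member's.

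The melanoma label held on Tyrp1, Mitf and Sox10, markers that the rule did not use. In CPM (a gene's summed UMIs scaled to a total of 1e+06), Tyrp1, a melanosomal enzyme, stood at 2269 and 2489 in members of the control and OX40 agonist libraries. Mitf and Sox10, the lineage's transcription factors, stood at 328 and 333 CPM and at 123 and 112 CPM. The whole list of 8 melanoma markers, with the rule's own Pmel, Mlana and Dct, summed to 17262 and 17856 CPM, against 111 and 110 in leukocytes, a gap that the selection largely sets. A summed level of 12 leukocyte genes, Ptprc among them, was 483 and 442 CPM in members, 563 and 563 in the other melanoma cells and 12945 and 12644 in leukocytes. Xist, which cells of the female host make, stood at 5.81 and 6.36 CPM against 743 and 830 in leukocytes. The 6 fibroblast markers summed to 2.21 and 3.01 CPM in members and 3.54 and 5.65 in the other melanoma cells. Most of that was the collagen gene Col1a2, at 2.21 and 2.57 CPM in members, while Col1a1, Dcn and Lum were at 0. The endothelial markers Cdh5 and Cldn5 were also at 0 in members of both libraries, but the endothelial list summed to 44.3 and 62.1 CPM, nearly all of it Vwf, a platelet-binding factor, at 43.5 and 61.3 CPM (20.1 and 27.4 in the other melanoma cells). These cells passed a CD45 gate although they hold little Ptprc, and how they came through the gate was not tested.

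The genes that defined the ranking are given as description, since they chose the members. Car9 (chr4:43506966-43513729, plus strand) encodes carbonic anhydrase 9, an enzyme of acid handling at the cell surface. It stood at 549 CPM in members against 91.0 in the other melanoma cells of the control library and at 557 against 64.3 in the OX40 agonist library. Pgf (chr12:85166635-85177790, minus strand), placental growth factor, a ligand of the VEGF receptor Flt1, stood at 356 against 26.0 CPM and at 300 against 16.1. Ndrg1, a stress-induced differentiation gene, stood at 259 against 63.3 CPM and at 262 against 55.1. Egln3, a HIF prolyl hydroxylase that is itself a HIF target, was low throughout, at 9.87 against 5.87 CPM and at 11.8 against 5.84. Car9 alone gave 46.7% and 49.2% of the members' ranking UMIs, Pgf 30.3% and 26.5%, Ndrg1 22.1% and 23.2%, and Egln3 0.840% and 1.05%. The ranking was thus in effect a ranking by 3 genes, led by Car9.

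Most members carried Car9, fewer carried Pgf. With each cell taken down to 5000 UMIs, the expected share of members with a Car9 UMI was 89.4% (95% Clopper-Pearson interval 83.4 to 93.6) in the control and 91.0% (85.5 to 95) in the OX40 agonist library, compared with 30.0% and 24.0% of the other melanoma cells and 1.28% and 1.12% of T cells. At full depth 98.2% and 99.4% of members had one. The Pgf shares at 5000 UMIs were 61.9% and 56.0% of members, 10.9% and 6.69% of the others and 0.770% and 0.846% of T cells (89.3% and 90.7% of members at full depth). Ndrg1 was found in 65.5% and 65.9% of members, but also in 62.3% and 52.6% of mature dendritic cells, so it is not peculiar to tumour cells here. Egln3 was found in 4.17% and 5.91% of members, 6.57% and 7.26% of T cells, which held 15.6 and 17.0 CPM of it, and 1.28% and 2.63% of mature dendritic cells. The share in members was thus not above that in T cells.

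Members differed among themselves in which ranking gene was high. Per-cell Car9 ran from 0 to 1401 CPM with a median of 506 in the control library, and from 0 to 1366 with a median of 545 in the OX40 agonist library. Pgf ran from 0 to 3235 CPM (median 229) and from 0 to 2191 (median 178), with 18 and 15 members at 0. Across members Car9 and Pgf were close to unrelated, with Spearman rho of 0.07 and 0.06, whereas across the other melanoma cells rho was 0.38 and 0.21. The members were selected on a sum that holds both genes, and cells of a library share its preparation, so these values are a description. Ranked without Car9, 280 of the 329 cells (85.1%) were chosen again, and with the ranking made on 1 random part of each cell's UMIs 311 (94.5%) were.

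**Figure D1:**
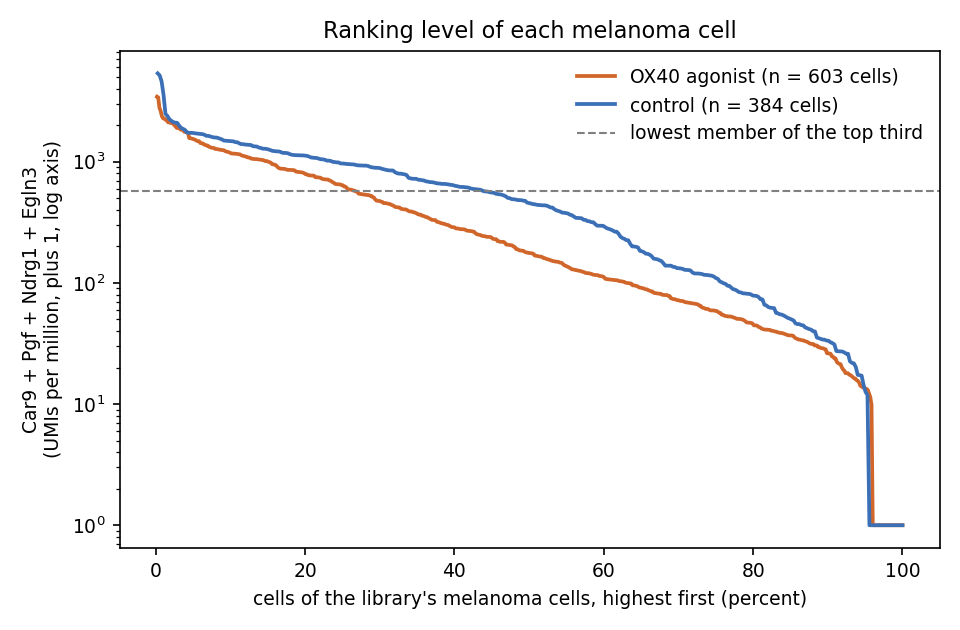
Summed level of Car9, Pgf, Ndrg1 and Egln3 in each melanoma cell (CPM plus 1, log axis) against the cell's rank within its library (percent), for 384 control and 603 OX40 agonist cells; the dashed line marks the lowest member at 570.0 CPM. The control curve lies above the OX40 agonist curve over most of the range and crosses the dashed line at 43.8% of cells, against 26.7%.

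The levels passed through the boundary with no step. The lowest member had 66 ranking UMIs of 115797 (570.0 CPM), and the first cell outside had 54 of 94831 (569.4 CPM). Members made up 168 of 384 melanoma cells in the control library (43.8%, 95% Clopper-Pearson interval 38.7 to 48.9) and 161 of 603 in the OX40 agonist library (26.7%, 23.2 to 30.4). Within members the ranking level had nearly the same median in both libraries, 1052 and 1051 CPM, while the other melanoma cells had 120 and 98.2. The difference in shares compares 1 library with 1 library, on cells that a gate for leukocytes let through, and so cannot be told apart from a difference between the samples or the sorts.

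Of 7784 measured genes, 201 (2.58%) were at least 1.5-fold higher in members in both libraries, Car9, Pgf and Ndrg1 among them, and 385 (4.95%) were at least 1.5-fold lower. A gene was measured when it reached 10 CPM in members or in the other melanoma cells in each library. For the 1.5-fold call and for log2 ratios, both sides were first raised by 10 CPM. Fold values printed for single genes are plain ratios of CPM without this addition. They therefore lie farther from 1 than the called measure, most of all for genes of low level. Log2 ratios are given from the library in which they lie nearer to 0. With median-of-ratios scaling, which moved the median of all genes by 0.05 and 0.10 on the log2 scale, the split was 285 higher to 248 lower, so that 53.5% of called genes were higher instead of 34.3%. The ratios of the 2 libraries went together across genes (Pearson's r = 0.925, Spearman's rho = 0.900, over genes that are not independent replicates). All of these come from the same cells that were ranked, so they describe what goes with the ranking and test nothing.

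The known HIF targets were higher nearly throughout. Of 36 genes listed for the hypoxia response, with the ranking genes left out, 22 were measured, all 22 were higher in both libraries and 20 passed 1.5-fold, with median log2 ratios of 1.25 and 1.29, beside -0.07 and -0.11 over all genes. A gene that reached 10 CPM only in members had to be higher, so this count supports nothing by itself; over the listed genes with any UMI in each library the medians were 0.87 and 0.92. Ero1l (chr14:45283087-45318771, minus strand), an oxidase that helps form disulfide bonds in the endoplasmic reticulum, stood at 1171 CPM against 232 in the control library and 1033 against 170 in the OX40 agonist library. That made it 5.05-fold (4.88 to 5.23) and 6.08-fold (5.88 to 6.30) higher in members. At 5000 UMIs it was found in 93.9% and 95.4% of members, 54.4% and 49.0% of the others and 31.3% and 32.1% of T cells.

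Several of these targets act on mitochondria. Bnip3 (chr7:138890836-138909519, minus strand), a receptor that marks mitochondria for removal, stood at 902 CPM against 231 and at 875 against 174, or 3.90-fold and 5.04-fold higher. Its relative Bnip3l stood at 653 against 239 and at 625 against 213 CPM (log2 ratio 1.42). Higd1a, a small protein of the respiratory chain, stood at 2072 against 776 and at 2054 against 626 CPM (1.41), and Fam162a, another mitochondrial protein, reached a log2 ratio of 1.23. Each of the 4 was higher in members of both libraries. None of the respiratory chain subunits described later passed the fold, as was the case for most measured genes.

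Vegfa (chr17:46016993-46032369, minus strand), the main growth factor for new vessels, stood at 212 against 46.6 CPM and at 187 against 49.5, which is 4.55-fold (4.2 to 4.93) and 3.77-fold (3.52 to 4.05) higher. It was found in 58.7% and 56.3% of members at 5000 UMIs, against 20.3% and 21.2% of the others and 7.92% and 10.2% of T cells. One control member reached 5003 CPM of Vegfa, against a median of 176. Of 6 angiogenic factors measured, Vegfa alone passed the fold. Among all measured genes 2.58% passed on the higher side, so this count does not set the others apart. In both libraries 3 of the 6 were higher and 2 lower, with list medians of 0.29 and 0.06, beside -0.07 and -0.11 over all genes. Vegfb, a ligand of Flt1 like Pgf, stood at 205 against 213 and at 198 against 207 CPM.

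Lipid, glycogen and collagen enzymes of the hypoxia list were higher too. Hilpda, which blocks lipid breakdown and favours lipid droplets, stood at 191 against 47.3 and at 174 against 56.6 CPM (log2 ratio 1.47). The glycogen enzymes Gbe1 and Gys1 reached 1.27 and 1.08, the collagen hydroxylases P4ha2 and Plod2 reached 1.31 and 0.94, and the repressors Mxi1 and Bhlhe40 1.41 and 0.80. Kdm3a, a histone demethylase, and Plod1 fell short of the fold in the control library, at 0.56 and 0.58, though not as plain ratios without the added 10 CPM. In the wider matrix list only Fn1 (fibronectin, 1.00) and Plod2 of 12 measured genes passed, and Serpinh1, a collagen chaperone, was on the lower side at -0.49.

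Within the oxygen sensing machinery, the genes of HIF breakdown Egln1 and Vhl passed the fold, while the HIF subunit Hif1a fell just short of it. Egln1 (chr8:124908587-124949324, minus strand), the main HIF prolyl hydroxylase, stood at 481 against 158 CPM and at 455 against 137, a 3.05-fold (2.91 to 3.19) and 3.32-fold (3.18 to 3.47) difference. Vhl reached a log2 ratio of 0.77 at 47.3 against 20.5 and 40.9 against 19.9 CPM. Hif1a itself stood at 225 against 146 and at 214 against 141 CPM (0.57). Cited2, a HIF-induced inhibitor of the coactivator p300, also reached 0.57, and both were just under the 1.5-fold line of 0.58. As plain ratios, without the added 10 CPM, Hif1a and Cited2 were past 1.5-fold in both libraries, so the call does not set them apart from Vhl. Egln2 (-0.27) and the adaptor subunits Eloc and Rbx1 (-0.24 and -0.16) were slightly on the lower side. In all, 2 of 14 measured genes passed the fold, and the median was 0.22 and 0.10.

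Glycolytic genes were higher along most of the pathway, with medians of 0.74 and 0.95 and 11 of 17 measured genes past the fold; the other 6 were on the higher side as well. The largest ratio was at uptake, where the glucose transporter Slc2a1 (chr4:119108711-119137983, plus strand) stood at 339 against 83.1 CPM and at 286 against 59.7, or 4.07-fold (3.84 to 4.33) and 4.79-fold (4.51 to 5.08) higher. Hk2, the hexokinase that traps glucose, reached a log2 ratio of 1.22, Aldoc 1.05, and Pdk1, which holds pyruvate back from mitochondria, 0.94. Hk1, another hexokinase, reached 0.46 and the phosphofructokinase gene Pfkm 0.32. Gapdh stood at 16306 against 9270 CPM and at 15760 against 7924 (0.81). Pgk1 reached 0.74, and Ldha, which makes lactate, 0.47 at 3549 against 2554 and 3376 against 2103 CPM. Eno1, Pfkm, Hk1, Pgam1, Tpi1 and Ldha were the 6 that did not pass in both libraries.

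Of 7 genes for lactate export and pH control, 2 passed. Bsg, the chaperone of lactate transporters, stood at 2218 against 1011 and at 1992 against 800.05 CPM (log2 ratio 1.13), and the bicarbonate transporter Slc4a4 reached 0.69. The lactate transporter Slc16a1 was level, at 26.8 against 27.4 and 28.7 against 30.0 CPM.

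Genes of oxidative metabolism stayed under the fold. None of 23 nuclear genes of oxidative phosphorylation passed the fold in both libraries, with medians of -0.18 and -0.12, and neither did any of 14 citric acid cycle genes, with medians of -0.18 and -0.18. Sdhb, an iron-sulfur subunit of complex II, was lowest among the former at -0.52. Cytosolic ribosomal proteins (30 genes, medians 0.05 and 0.08) and pigment cell genes (17 genes, medians -0.09 and -0.02) also had none past the fold. Over all measured genes only 2.58% passed on the higher side and 4.95% on the lower. A count of none in lists of this size therefore does not set them apart from other genes. The pigment list includes Pmel, Mlana and Dct, which defined all melanoma cells.

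Several of the strongest genes lie outside any list. Leaving out the ranking genes, the largest ratio among the genes named by rule was that of Selenbp1 (chr3:94933056-94944758, plus strand), a methanethiol oxidase, at 196 against 28.4 CPM and 168 against 14.99, which is 6.90-fold (6.26 to 7.61) and 11.2-fold (10.1 to 12.5). It was found in 53.6% and 49.2% of members at 5000 UMIs, 12.3% and 6.97% of the others and 1.84% and 2.13% of T cells. Espn, an actin-bundling protein, stood at 622 against 127 and at 514 against 89.1 CPM (log2 ratio 2.21). Nppb, the brain natriuretic peptide, stood at 140 against 32.6 and at 130 against 28.7 CPM (1.81) and was under 1 CPM in leukocytes, at 0.618 and 0.366. Selenbp1 and Espn were likewise low in leukocytes, at 12.9 and 11.4 CPM and at 2.996 and 2.56 CPM.

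Tnfrsf9, the T-cell costimulatory receptor 4-1BB, was also on this list. It stood at 73.6 against 11.9 CPM in the control library and at 67.3 against 6.43 in the OX40 agonist library. As plain ratios it was 6.19-fold (5.32 to 7.23) and 10.5-fold (8.90 to 12.4) higher in members. With the added 10 CPM its log2 ratio was 1.93. T cells held 595 and 619 CPM of it, and it was found in 77.5% and 78.6% of T cells at 5000 UMIs, against 24.8% and 22.6% of members and 4.92% and 3.54% of the other melanoma cells. Mature dendritic cells, another leukocyte type, had it in 44.5% and 39.7%. The 9 T-cell markers summed to 47.4 and 25.4 CPM in members and 27.8 and 19.2 in the others, while in leukocytes they summed to 3909 and 3123. Members thus held 20.02% and 20.2% of the leukocyte level of Tnfrsf9, against a median of 1.23% and 0.791% for the T-cell markers. The source of the Tnfrsf9 RNA in members was not tested.

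Cited1, a transcriptional coactivator of the Cited family that is found in pigment cells, stood at 425 against 136 and at 301 against 72.9 CPM (log2 ratio 1.57). Ier3, a stress-induced survival gene, reached 1.53 and the ubiquitin ligase Rnf19a 1.49. Cdkn1a, the cyclin-dependent kinase inhibitor p21, stood at 325 against 135 and at 250 against 106 CPM (1.16), and it alone of 7 measured p53 targets passed the fold. Hmox1, heme oxygenase, reached 0.92, but up to 22.9% of its UMIs in a group came from 1 cell.

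**Figure D2:**
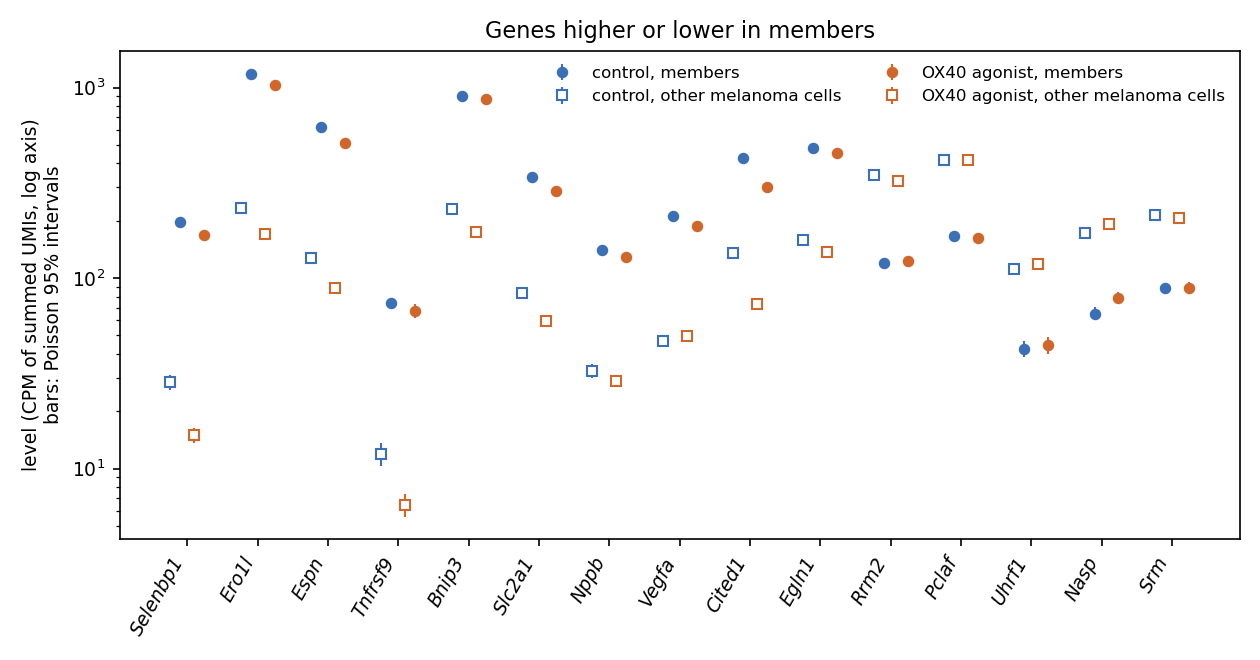
Level of 15 genes in members (filled circles) and in the other melanoma cells (open squares) of the control (blue) and OX40 agonist (orange) libraries, in CPM of summed UMIs on a log axis with Poisson 95% intervals. The first 10 genes lie higher in members of both libraries, by log2 ratios of 1.55 (Egln1) to 2.42 (Selenbp1), and the last 5 lie lower, by ratios of -1.14 (Srm) to -1.32 (Rrm2).

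Genes of DNA replication and mitosis were lower in members. Of 19 measured S-phase genes 17 passed the fold on the lower side, with medians of -0.84 and -0.89, and of 18 G2 and mitosis genes 15 did, with medians of -0.85 and -0.95. Rrm2, the regulated subunit of ribonucleotide reductase, stood at 120 CPM against 346 in the control library and at 123 against 323 in the OX40 agonist library (log2 ratio -1.32), the lowest ratio among the genes named by rule. Pclaf, a partner of the replication clamp, stood at 167 against 416 and at 163 against 417 CPM (-1.27). Uhrf1, which copies DNA methylation, reached -1.21, the thymidylate enzyme Tyms -1.12, and the histone chaperone Nasp -1.19. Mitotic genes followed, with Cdc20 at -1.16 and Plk1, a mitotic kinase, at -1.16.

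The same appeared cell by cell. At 5000 UMIs, 28.4% (95% Clopper-Pearson interval 21.5 to 36.0) of control members and 26.5% (20.01 to 34.4) of OX40 agonist members had a UMI of Mki67 or Top2a, 2 genes of cycling cells. The other melanoma cells had 58.2% (51.3 to 65.3) and 56.8% (51.8 to 61.4), and T cells 50.6% and 47.8%. Mature dendritic cells, a type that cycles little, had 18.0% and 11.9%. At full depth the shares were 64.9% and 57.1% in members and 90.3% and 88.5% in the others. Of the members 9 and 4 cells fell under 5000 UMIs and were left out.

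Growth and folding genes were lower to a smaller degree. For ribosome synthesis and Myc targets 8 of 17 measured genes passed on the lower side (medians -0.59 and -0.63), among them the spermidine synthase Srm at 88.6 against 214 and 88.7 against 208 CPM (-1.14), and Nolc1 and Nop58 of the nucleolus at -0.95 and -0.89; Myc itself was level at 84.9 against 79.9 and 69.2 against 81.6 CPM. Of 17 endoplasmic reticulum chaperones 8 passed (medians -0.58 and -0.59), such as Manf (-0.82) and the chaperone BiP, encoded by Hspa5, at 599 against 962 and 539 against 950 CPM (-0.67). Their neighbour in function Ero1l went the other way. Of 16 cholesterol synthesis genes 4 passed (medians -0.45 and -0.62), led by the isomerase Idi1 at -1.03. Within the amino acid response, Phgdh, the first enzyme of serine synthesis, was lower (-0.89) and the stress factor Ddit3 higher (0.79), while the list as a whole lay at 0.18 and -0.03.

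**Figure D3:**
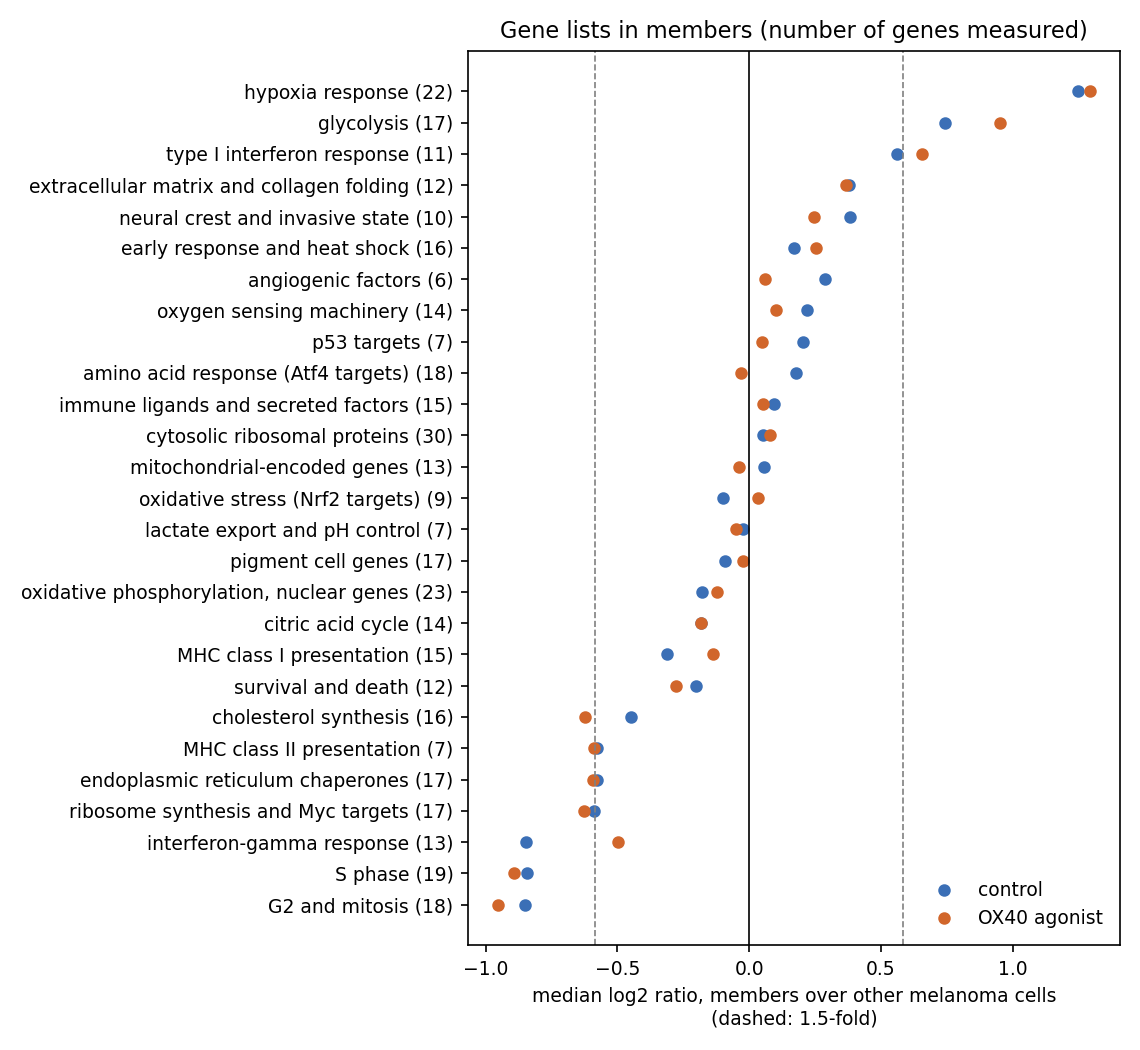
Median log2 ratio of members over the other melanoma cells for each gene list (number of measured genes in brackets) in the control (blue) and OX40 agonist (orange) libraries; dashed lines mark 1.5-fold. Hypoxia response (1.25 and 1.29) and glycolysis (0.74 and 0.95) lie farthest to the right. S phase (-0.84 and -0.89), G2 and mitosis (-0.85 and -0.95) and, in the control library, interferon-gamma response (-0.85) lie at the left end.

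In summed UMIs, the median ratios of interferon-gamma and type I interferon genes lay in opposite directions. Interferon-gamma response genes were lower in members, with medians of -0.85 in the control and -0.50 in the OX40 agonist library and 4 of 13 measured genes past the fold in both. Igtp, an interferon-induced GTPase, stood at 81.9 against 199 and at 19.1 against 49.7 CPM (-1.04). Cxcl10, a chemokine that draws T cells, stood at 102 against 221 and at 59.1 against 167 CPM (-1.04). Up to 29.8% of a gene's UMIs in a group of this list came from 1 cell (Psmb8).

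Antigen presentation followed in part. For MHC class II 3 of 7 measured genes passed on the lower side (medians -0.58 and -0.59), and for MHC class I 2 of 15 did (medians -0.31 and -0.14): the immunoproteasome subunit Psmb10 and the chaperone Calr. B2m, the light chain of class I, was on the higher side, at 2096 against 1849 and 1087 against 884 CPM. Type I interferon genes lay the other way, with medians of 0.56 and 0.65 and 5 of 11 past the fold on the higher side: Isg15, Ifit1, Rsad2, Usp18 and Irf7. Isg15, a ubiquitin-like antiviral protein, stood at 173 against 99.1 and at 143 against 40.7 CPM. Single cells weighed on this list, up to 48.3% of the Ifit1 UMIs of a group. Without the cell with most UMIs of each gene its medians were 0.52 and 0.57, so that neither library lay past the 1.5-fold line. The median cell did not always follow the summed UMIs. For the type I list it held 665 CPM in control members against 742 in the others, and 298 against 219 in the OX40 agonist library. For the MHC class II list it held 1059 against 1806 CPM in the control library, and 71.0 against 63.7 in the OX40 agonist library.

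The hypoxia, glycolysis and cell cycle lists followed the ranking beyond its boundary, whereas the type I interferon list of the control library and the MHC class II list of the OX40 agonist library had no steady order. With all 987 melanoma cells split into 9 bins of the ranking, of which the first 3 are the members, the summed hypoxia list was lower in each bin than in the one before, from 9955 CPM in the first to 1560 in the last in the control library and from 9723 to 1385 in the OX40 agonist library. Glycolysis went from 49746 to 20507 CPM and from 47726 to 17383. S phase went the other way, from 512 to 2262 CPM and from 575 to 2198, and G2 and mitosis from 1076 to 3720 and from 1233 to 3212. Members in the first bin therefore differed from those in the third, which had 6268 and 6090 CPM of the hypoxia list and 1305 and 1287 CPM of the S-phase list. The type I interferon list stood at 1229 CPM in the first bin, 1032 in the third and 1128 in the last of the control library. The MHC class II list of the OX40 agonist library stood at 937 CPM in the first bin, 297 in the third, 1012 in the seventh and 560 in the last. Every bin held at least 29 cells of each library. Across members alone, the ranking level and the summed hypoxia list had Spearman rho of 0.58 and 0.64, and the ranking level and depth -0.15 and -0.21; these points share the library and the depth of each cell.

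**Figure D4:**
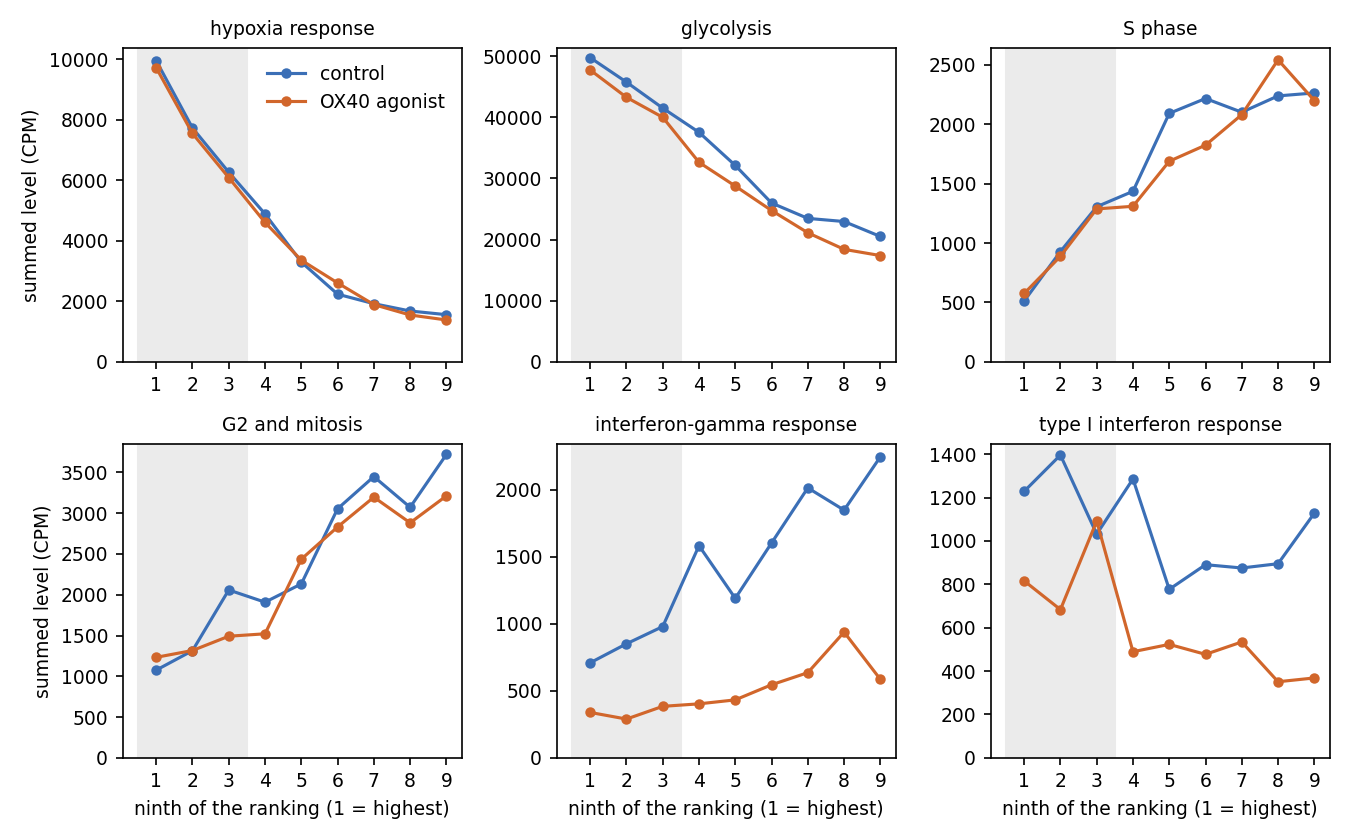
Summed level in CPM of 6 gene lists in 9 equal bins of the ranking (1 is the highest; the grey area marks the members) for the control (blue) and OX40 agonist (orange) libraries. Hypoxia and glycolysis are lower in each further bin, S phase goes from 512 to 2262 CPM and G2 and mitosis from 1076 to 3720 CPM in the control library, and the interferon-gamma line of the control library lies above that of the OX40 agonist library in every bin.

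Between the libraries, members differed in antigen presentation and interferon-gamma genes and little in the hypoxia genes. Of 7672 genes measured in members, 3 (0.0391%) were at least 1.5-fold higher and 53 (0.691%) at least 1.5-fold lower in the OX40 agonist library than in the control library. In the other melanoma cells the counts were 6 (0.0763%) and 82 (1.04%) of 7863. Because the boundary was set on both libraries together, the members' ranking genes are held near one level by the choice. The hypoxia list was not used in the ranking but went with it. Spearman rho with the ranking level was 0.58 and 0.64 across members and 0.67 and 0.74 across the others. The shared boundary therefore bears on this list too, and its likeness between the libraries is no separate finding. Its median was -0.06 in members and -0.08 in the others, that of glycolysis -0.07 and -0.28, and that of S phase 0.02 in members. None of the genes of these 3 lists passed the fold between the libraries in members.

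Genes of interferon-gamma and of MHC were among the 53 that were lower in the OX40 agonist members. The interferon-gamma list had a median of -0.97 with 12 of 14 measured genes past the fold in members (-1.43 with 13 of 14 in the other melanoma cells), MHC class I -0.92 with 11 of 14 (-1.08 with 12 of 16) and MHC class II -1.48 with 6 of 7 (-1.53 with 6 of 7). H2-D1, a class I heavy chain, went from 699 CPM in control members to 268 in OX40 agonist members, 0.383-fold (0.366 to 0.401), beside 689 to 260 in the others. Igtp went from 81.9 to 19.1 CPM (0.233-fold, 0.197 to 0.275) and Psmb9 of the immunoproteasome from 89.8 to 31.4 (0.349-fold, 0.305 to 0.399). Type I interferon genes differed less in members, with a median of -0.34 and 2 of 11 past the fold, against -0.79 and 7 of 10 in the other melanoma cells; that contrast was not tested.

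MHC class II genes are also abundant in leukocytes, so their levels are set beside those. H2-Aa, a class II chain, stood at 364 CPM in control members and 105 in OX40 agonist members, against 1927 and 1701 CPM in leukocytes. Members thus held 18.9% and 6.14% of the leukocyte level, while over the 12 general leukocyte genes the median was 1.57% and 1.19%. At 5000 UMIs H2-Aa was found in 58.8% of control members and 19.98% of OX40 agonist members, and in 27.7% and 27.3% of T cells. Barcodes counted as T cells held 539.7 and 550.5 CPM of it, so they are no empty reference. Macrophage markers did not exclude a barcode from that group. The group held 534 and 544 CPM of the macrophage gene C1qa, against 1146 and 1277 CPM in leukocytes. The source of its class II RNA was not tested. How much of the members' class II RNA came from leukocytes was not tested. Cd74, the invariant chain, went from 917 to 290 CPM in members and from 6093 to 5395 in leukocytes.

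Of the 3 genes higher in the OX40 agonist members, Tyr, the rate-limiting enzyme of melanin synthesis, stood at 132 CPM against 82.3 in control members, 1.60-fold (1.46 to 1.75), and at 113 against 98.3 in the others. The remaining 2, Col9a1 (22.98 against 10.9 CPM) and the chemokine Pf4 (12.5 against 4.52 CPM), fell outside the naming rule and are named because they were the only others. The count of such genes was 1 without the cell with most UMIs of each gene.

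**Figure D5:**
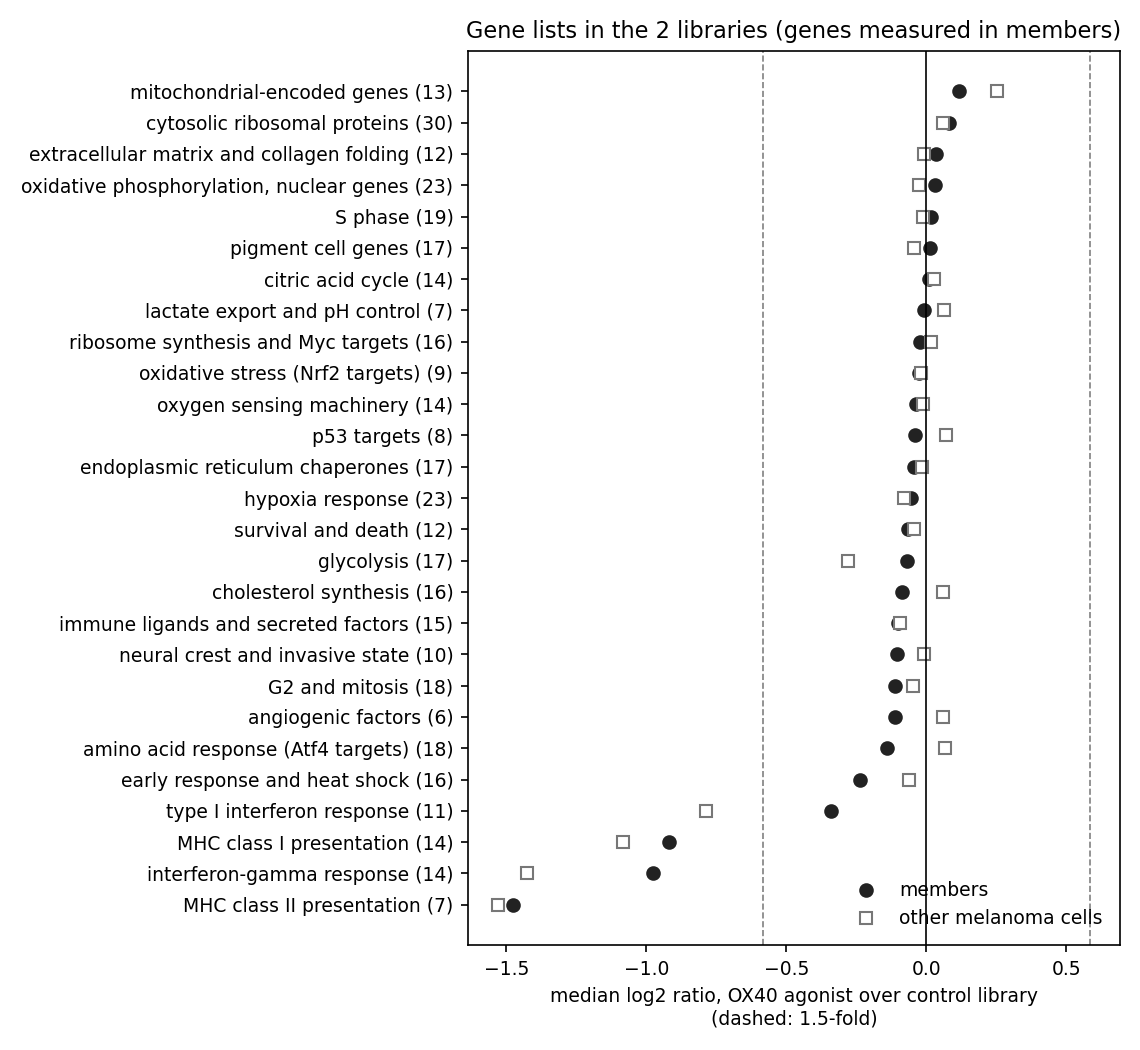
Median log2 ratio of the OX40 agonist over the control library for each gene list, in members (filled circles) and in the other melanoma cells (open squares), with the number of genes measured in members in brackets; dashed lines mark 1.5-fold. MHC class II (-1.48), interferon-gamma response (-0.97) and MHC class I (-0.92) lie past the left line in members, and hypoxia response (-0.06) and S phase (0.02) lie near 0.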

How the data were processed

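Single-cell RNA of CD45-sorted B16-F10 tumour cells was deposited by the authors as 10x matrices of UMI counts, 1 library per group, made with Cell Ranger on mm10 per the submitters' processing notes; the file headers give software version 3.1.0. The series' design text writes DAPI-positive for the living cells, whereas the extraction protocol uses the dye to leave out dead cells.

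Computed from these counts: cells were filtered and ranked as stated, UMIs were summed per library and group, scaled to CPM, and compared as log2 ratios after adding 10 CPM, for genes with at least 10 CPM on one side in each library (in either library between the libraries), and called past 1.5-fold. Poisson and Clopper-Pearson 95% intervals are exact. No test was run, since each group is 1 library. Total UMIs were 10835942 and 8963210 in members. Shares of cells with a UMI were taken at 5000 UMIs as the expectation over all draws; a single random draw had been planned, but repeat draws moved shares by several points, so this was changed after draws had been seen, with intervals on the rounded expected count. Scrublet's automatic threshold marked 0% of barcodes, so no doublets were removed; as an alternative, removing the highest scores at the usual doublet rate took 5 of 168 and 4 of 161 members. Mature dendritic cells (at least 2 Ccr7 and 2 Fscn1 UMIs, no Cd3e, at least 3 Ptprc) were added as a reference after the data had been seen.

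Named genes were the 15 highest and 10 lowest in members among those past the fold in both libraries, with at least 50 CPM and a UMI in 20% of cells of the higher group and no cell over 10% of the UMIs, up to 10 each way between the libraries by the same limits, the ranking genes, the hypoxia, sensing and glycolysis lists, and up to 4 genes of each other list. The members and lists were chosen with earlier results of these data known. Gene positions are from GENCODE M21 (GRCm38) and promoters from RefSeq (GRCm38.p6). Of 22 measured hypoxia genes 17 matched a promoter; Ndrg1, Bnip3l, Plod2, Ero1l and Bhlhe40 were among those without one. Some of the genes chosen by these rules are not reported here. The orientation of promoters was checked on 11 genes, of which 8 were found in transcripts of the same direction. The code was tested on simulated data. Python 3.11.15, numpy 2.4.6, pandas 2.3.3, scipy 1.17.1, scanpy 1.11.5 and matplotlib 3.10.9 were used.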

Additional observations from a re-analysis of the deposited data

Results flagged for a closer look

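Among the genes named by rule, 2 differed in opposite directions between the libraries in members and in the other melanoma cells. Hspa1b, a heat-shock chaperone, had a log2 difference (OX40 agonist minus control) of -0.26 in members, from 58.6 to 47.3 CPM, and 0.72 in the other melanoma cells, from 12.9 to 27.8 CPM. Up to 21.5% of its UMIs in a group came from 1 cell. Srgn, a granule proteoglycan of leukocytes, had -0.53 in members, from 33.7 to 20.3 CPM, and 0.30 in the others, from 23.9 to 31.8 CPM. Neither difference was tested, since each group is 1 library.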

How the results depend on the processing

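No value changed its direction among the results called. With a pseudocount of 1 CPM, 340 genes were higher and 754 lower in members, 9 lists instead of 5 had medians past 1.5-fold in both libraries, and 20 and 102 genes were higher and lower in the OX40 agonist members. With median-of-ratios scaling 248 were lower in members. As a mean over cells, 6 and 125 genes were higher and lower in OX40 agonist members, and after thinning to 5000 UMIs 279 and 434 were, with far fewer UMIs behind each gene. Against the lowest-ranked 1 in 3, 333 genes were higher and 657 lower. The members' share of melanoma cells was 33.1% and 19.9% for the top 1 in 4, 61.7% and 42.6% for the upper 1 in 2, and 33.3% and 33.3% by construction when ranked within each library, where 5 genes were higher in OX40 agonist members. Without thinning the Mki67 or Top2a share was 64.9% and 57.1%. Without the cell with most UMIs of each gene, an alternative chosen after seeing the data, 1 gene was higher in OX40 agonist members. Where no cause is given it was not tested. Of the list medians under all alternatives 1567 stayed within the range set and 26 moved, and of the named genes 9273 stayed and 357 moved. No paired analysis was possible because each group is 1 library. Depth limits genes near 10 CPM, Egln3 among them, and no replicate was there to leave out.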

Other observations

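Some genes outside the main account also differed between members and the other melanoma cells. Of 15 immune ligands and secreted factors, Cxcl10 alone passed the fold in both libraries, on the lower side. Mif, a cytokine made in excess by many tumours, stood at 3159 against 2235 CPM in the control and 3612 against 2216 in the OX40 agonist library, and Cd47, a signal that inhibits engulfment by macrophages, at 133 against 86.4 and 123 against 65.8 CPM. After adding 10 CPM, each of these 2 genes was past 1.5-fold in the OX40 agonist library alone. As a plain ratio, Cd47 was past it in the control library as well. Among early response and heat-shock genes, the cochaperone Dnajb1 was higher, at 134 against 54.1 and 97.3 against 47.8 CPM, whereas the constitutive chaperone Hspa8 stood at 2072 against 2778 and 1726 against 2480 CPM.

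The 13 genes encoded by mitochondria had medians of 0.06 and -0.04. Within them, mt-Co1 of complex IV stood at 6789 against 4807 CPM and 6559 against 4969, and mt-Nd1 of complex I at 1004 against 1286 and 1086 against 1637. Of 12 survival and death genes, Birc5, which is also a mitotic gene, and Bak1 were past the fold on the lower side.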
